A study of Mus musculus with 2 samples.

Results

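Iron and heme handling was described in 4T1 cells, a murine breast cancer (BC) line, through 10 genes chosen by symbol: Hmox1, Blvrb, Fth1, Ftl1, Ncoa4, Tfrc, Slc11a2, Slc40a1, Ireb2 and Aco1. All 10 were among the 14197 genes of the deposited table. The rule for membership uses the symbols and no measured value, but the genes were chosen with earlier results of these data known. Wild-type 4T1 cells were treated in vitro with 20 μM astragalin (AS), a plant flavonoid, for 24 h, or with the vehicle, and each condition was sequenced as 1 mRNA library. With 1 library per condition there was no replicate check and no test between conditions, and every interval below covers counting error only. 4T1 is a single tumour line, and the labels do not say how many dishes of cells each library stands for. Since the libraries are bulk RNA, fewer cells expressing a gene and less of its RNA per cell cannot be told apart.

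Cells take up iron bound to transferrin through the transferrin receptor, store the excess in ferritin, a hollow shell built of heavy and light chains, and release it through the exporter ferroportin. Heme is opened by heme oxygenase, which sets iron free and yields biliverdin, and biliverdin is reduced to bilirubin. When iron is scarce, the iron regulatory proteins IRP1 and IRP2 bind hairpins called iron-responsive elements (IREs). A hairpin in the 5′ UTR holds back translation of the mRNA, and hairpins in the 3′ UTR protect the mRNA from decay. Transcription adds a separate layer of control, since NRF2 activates and BACH1 represses heme oxygenase, ferritin and ferroportin genes.

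Matches to an IRE pattern are shown because IREs tie a gene to control by iron after transcription. GENCODE M21 transcripts (GRCm38) were searched on the sense strand for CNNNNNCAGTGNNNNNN in which the 5 bases on either side of the loop could pair, G-U pairs included. Of the 10 genes, Fth1, Ftl1 and Slc40a1 held this pattern once in the 5′ UTR, and Tfrc held it at 4 places in the 3′ UTR. The pattern occurred in the 5′ UTR of 0.142% and in the 3′ UTR of 0.590% of the 21877 protein-coding genes searched. The 29 bases around each site are given 5′ to 3′ as the transcript reads, with T for U and the 6 bases of the loop in capitals.
Fth1 5′ UTR, chr19:9982732-9982760, plus strand: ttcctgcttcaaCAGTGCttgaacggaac
Ftl1 5′ UTR, chr7:45459779-45459807, minus strand: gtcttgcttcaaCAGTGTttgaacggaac
Slc40a1 5′ UTR, chr1:45925465-45925493, minus strand: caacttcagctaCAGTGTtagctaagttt
Tfrc 3′ UTR site 1, chr16:32631219-32631247, plus strand: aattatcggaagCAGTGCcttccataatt
Tfrc 3′ UTR site 2, chr16:32631598-32631626, plus strand: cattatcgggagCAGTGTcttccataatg
Tfrc 3′ UTR site 3, chr16:32631663-32631691, plus strand: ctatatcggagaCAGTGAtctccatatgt
Tfrc 3′ UTR site 4, chr16:32631710-32631738, plus strand: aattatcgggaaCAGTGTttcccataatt
The 2 ferritin sites had the same 5 paired letters on each side of the loop, ttcaa before it and ttgaa after it. The other 6 genes, Slc11a2 among them, held no match to this exact pattern. This says only that these letters were not found in their annotated protein-coding transcripts. A hairpin with an unpaired base within the 5 pairs next to the loop would be missed, so these genes may hold IREs of another form.

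The genes of ferritin and of the iron exporter were higher in the AS library, Hmox1 and Blvrb of heme breakdown were higher as well, and the main uptake gene and those of the IRPs were nearly level. Levels are given as RPKM, the reads per kilobase of summed exons, scaled to the reads of the library. Whole reads were recovered behind each value for all 10 genes. The log2 fold changes of AS over vehicle were taken after 0.1 RPKM was added to both values, and a log2 fold change beyond 1 was the limit for a called gene. The methods of the study pair this fold with an FDR, and also name a log2 ratio of 0.585 with a p-value. Neither the FDR nor the p-value was computed here. Of the 10 genes, 0 passed the limit of 1 in either direction, beside 0.662% of all genes passing it upward and 0.31% downward. At a fold of 1.5, which is 0.585 on the log2 scale, 2 genes were higher, Fth1 and Slc40a1, and 0 were lower, beside 3.56% of all genes higher and 2.01% lower. With TMM scaling these 2 genes were still past 1.5-fold, while the split of all genes went from 505 higher and 286 lower to 390 and 392, and at the limit of 1 from 94 and 44 to 76 and 54. With 1 RPKM added in place of 0.1, Fth1 alone of the 10 genes passed 1.5-fold, beside 1.33% of all genes higher. The median log2 fold change of the 10 genes was 0.28 and that of all genes was 0.07. Of the 10, 7 lay above the median of all genes.

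**Figure D1:**
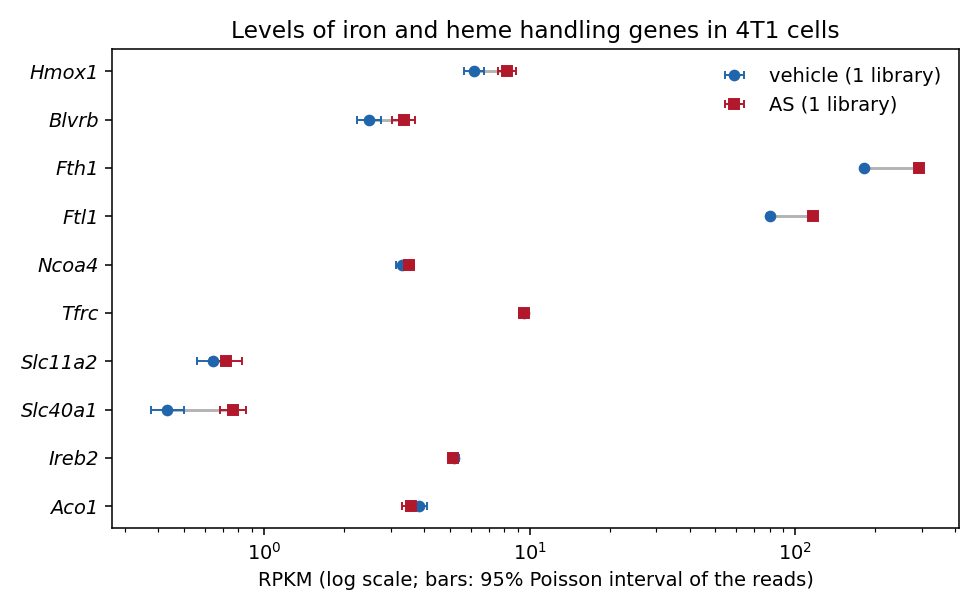
RPKM of each gene (log axis) in the vehicle library (blue circles) and the AS library (red squares), with bars for the 95% Poisson interval of the reads. The ferritin genes stand far above the others at 80.5 to 293 RPKM, and the symbols of Tfrc and Ireb2 lie on top of each other.

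Fth1 encodes the heavy chain of ferritin, which carries the site that oxidizes iron (chr19:9980598-9985098, plus strand of GRCm38). Its level was 293 RPKM with AS and 181 RPKM with the vehicle, from 45670 and 31967 reads. The AS library was thus the higher, 1.62-fold, with a log2 fold change of 0.69 and a 95% Clopper-Pearson interval of the reads from 0.67 to 0.71. Here and below, such intervals are for the ratio with no amount added. Among the 507 genes with a mean level of at least 100 RPKM, a bound set after the values were seen, 9 had a larger log2 fold change than Fth1.

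Ftl1 encodes the light chain, which helps form the iron core (chr7:45457944-45459884, minus strand of GRCm38). It was at 116 RPKM with AS and 80.5 RPKM with the vehicle, from 7008 and 5485 reads. The light chain was also higher with AS, by a log2 fold change of 0.53 (interval 0.48 to 0.58), just inside the 1.5-fold limit. Its difference was smaller than that of the heavy chain beyond counting error: the level ratio of Fth1 to Ftl1 was 2.52 with AS against 2.25 with the vehicle, which is a change of 0.16 on the log2 scale (95% interval from the reads 0.11 to 0.22). This ratio does not depend on the scaling between the libraries.

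Both ferritin genes together took 0.117% of the AS library (Clopper-Pearson interval 0.116% to 0.118%) and 0.0737% of the vehicle library (0.0730% to 0.0744%). Fth1 held 86.7% of these reads with AS and 85.4% with the vehicle. Ferritin genes have processed copies elsewhere in the genome, and how reads shared with them were counted is not given in the sources used here. Of 14 ferritin-like copies and pseudogenes in the annotation, Ftl1-ps1 alone was in the table, at 2.77 RPKM with AS and 2.54 with the vehicle. A further limit for Ftl1 is that 355 of its exon bases lie under Gm10252 on the opposite strand, which is also in the table. The library kit keeps the strand, but the strand setting of the counting is not given.

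Ncoa4 encodes the receptor that carries ferritin to the lysosome so that its iron can be released (chr14:32159865-32179855, plus strand of GRCm38). It stood at 3.50 RPKM with AS and 3.30 RPKM with the vehicle, from 1471 and 1571 reads. The libraries were close for this gene: the log2 fold change of 0.08 had an interval from -0.02 to 0.19 that spans 0, and it lay next to the median of all genes. For the receptor of ferritin breakdown no difference beyond counting error was seen, while for both ferritin chains the interval lay above 0.

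Slc40a1 encodes ferroportin, the exporter of iron from the cell (chr1:45908068-45926523, minus strand of GRCm38). It was a low gene, at 0.767 RPKM with AS and 0.433 RPKM with the vehicle, from 310 and 198 reads. The AS library was again the higher, with a log2 fold change of 0.70, and with no amount added to the RPKM it was 0.83 with an interval from 0.56 to 1.09. That interval reaches past the limit of 1, so at this depth the reads allow a 2-fold difference between the libraries. With 1 RPKM added in place of 0.1, the log2 fold change was 0.30, below 1.5-fold. In the vehicle library only 5.38% of all genes had a lower level than Slc40a1, and in the AS library 10.1% did.

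Tfrc encodes the transferrin receptor, the main entry of iron (chr16:32608920-32632794, plus strand of GRCm38). It had 9.48 RPKM with AS and 9.52 RPKM with the vehicle, from 2633 and 2993 reads. Its log2 fold change was -0.01, and the interval of the reads ran from -0.08 to 0.07. The gene with 4 matches to the IRE pattern in its 3′ UTR was thus level between the libraries within counting error at this scaling. With TMM or median-of-ratios scaling its log2 fold change was -0.07, and the interval ended just above 0. With upper-quartile scaling it was -0.08, and the interval lay below 0. Set against ferritin within each library, the level ratio of Tfrc to Fth1 was 0.0323 with AS against 0.0525 with the vehicle, which is a change of -0.70 on the log2 scale (interval -0.78 to -0.62).

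Slc11a2 encodes DMT1, which moves ferrous iron across the endosomal membrane (chr15:100387898-100425072, minus strand of GRCm38). Its level was 0.722 RPKM with AS and 0.644 RPKM with the vehicle, from only 206 and 208 reads. With so few reads its log2 fold change of 0.14 (0.16 with no amount added) had the widest interval of the 10 genes, from -0.12 to 0.45, and a difference was not detectable at this depth. Another gene, Gm5475, lies on the opposite strand over 402 of its exon bases and was not in the table.

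**Figure D2:**
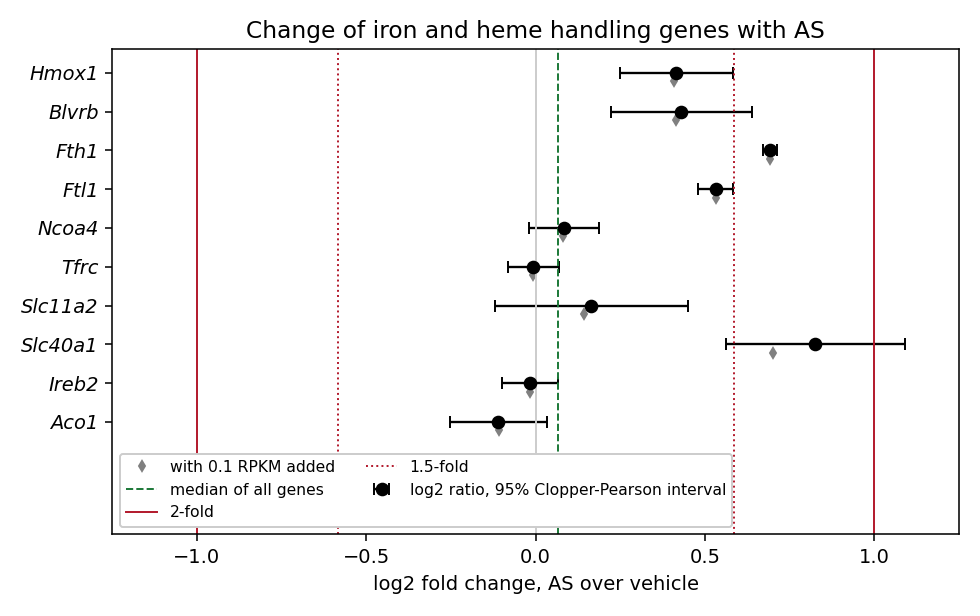
Log2 fold change of AS over vehicle for each gene (black circles, no amount added) with 95% Clopper-Pearson intervals of the reads, beside the value with 0.1 RPKM added (grey diamonds), the median of all genes (green dashed line) and the limits of 1.5-fold (dotted red) and 2-fold (solid red). The intervals of Hmox1, Blvrb, Fth1, Ftl1 and Slc40a1 lie wholly above the median of all genes, and those of the other 5 genes include 0. Of these 5, the interval of Aco1 lies wholly below the median of all genes, and those of Ireb2 and Tfrc end close to it.

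Hmox1 encodes heme oxygenase 1, the inducible enzyme that opens the heme ring (chr8:75093621-75100589, plus strand of GRCm38). It was at 8.24 RPKM with AS and 6.18 RPKM with the vehicle, from 648 and 550 reads. The level was 1.33-fold higher with AS, a log2 fold change of 0.41 with an interval from 0.25 to 0.58. Its constitutive partner Hmox2 was the more abundant of the pair in both libraries, at 44.5 RPKM with AS and 42.6 RPKM with the vehicle, and differed by 0.06 on the log2 scale. The level ratio of Hmox1 to Hmox2 was 0.185 with AS against 0.145 with the vehicle, which is a change of 0.35 on the log2 scale (interval 0.18 to 0.53).

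Blvrb encodes biliverdin reductase B, a flavin reductase that also acts on biliverdin isomers (chr7:27447978-27466144, plus strand of GRCm38). It had 3.35 RPKM with AS and 2.49 RPKM with the vehicle, from 419 and 352 reads. This was a difference of 0.42 on the log2 scale, with an interval from 0.22 to 0.64 when no amount was added. Blvra, the gene of the main biliverdin reductase, differed in the other direction, at 13.0 RPKM with AS against 15.8 RPKM with the vehicle, which is -0.28 on the log2 scale (interval -0.39 to -0.19). The level ratio of Blvrb to Blvra was 0.259 with AS against 0.158 with the vehicle, which is a change of 0.72 on the log2 scale (interval 0.49 to 0.94). The reductase genes thus differed in opposite directions.

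Ireb2 encodes IRP2 (chr9:54863789-54912530, plus strand of GRCm38). Its level was 5.15 RPKM with AS and 5.21 RPKM with the vehicle, from 2191 and 2508 reads. On the log2 scale the libraries differed by -0.02 (interval -0.10 to 0.07). Aco1 encodes IRP1, which serves as cytosolic aconitase when it holds an iron-sulfur cluster (chr4:40143081-40198338, plus strand of GRCm38). It stood at 3.56 RPKM with AS and 3.84 RPKM with the vehicle, from 719 and 878 reads. Its log2 fold change of -0.11 had an interval from -0.25 to 0.03. For both IRP genes the interval spans 0 at the scaling of the deposited RPKM. TMM, median-of-ratios or upper-quartile scaling lowers each value by about 0.07 or 0.08. This takes both intervals below 0, though only just for Ireb2. The level ratio of Ireb2 to Aco1 was 1.45 with AS and 1.35 with the vehicle (log2 change 0.09, interval -0.07 to 0.26). IRP activity is set largely by protein turnover and cluster loading, which RNA levels do not show.

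In order of level, Fth1 came first in both libraries, followed by Ftl1, Tfrc, Hmox1, Ireb2, Aco1, Ncoa4 and Blvrb. Slc40a1 took place 9 with AS and 10 with the vehicle, in exchange with Slc11a2. The 95% Poisson intervals of neighbours overlapped for 3 pairs with AS, which were Aco1 with Ncoa4, Ncoa4 with Blvrb, and Slc40a1 with Slc11a2, and for 0 pairs with the vehicle. Levels per kilobase depend on the exons counted. Fth1 was divided by 3469 bases of summed exons, while its longest principal transcript has 1494 bases, and Slc40a1 by 9000 bases, while its longest principal transcript has 3370. Per length of the longest principal transcript, the first 3 places were unchanged, Fth1 was at 681 RPKM with AS and 421 with the vehicle, and Blvrb moved up to place 5 with AS and 7 with the vehicle. Differences between the libraries are the same under either length when no amount is added.

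**Figure D3:**
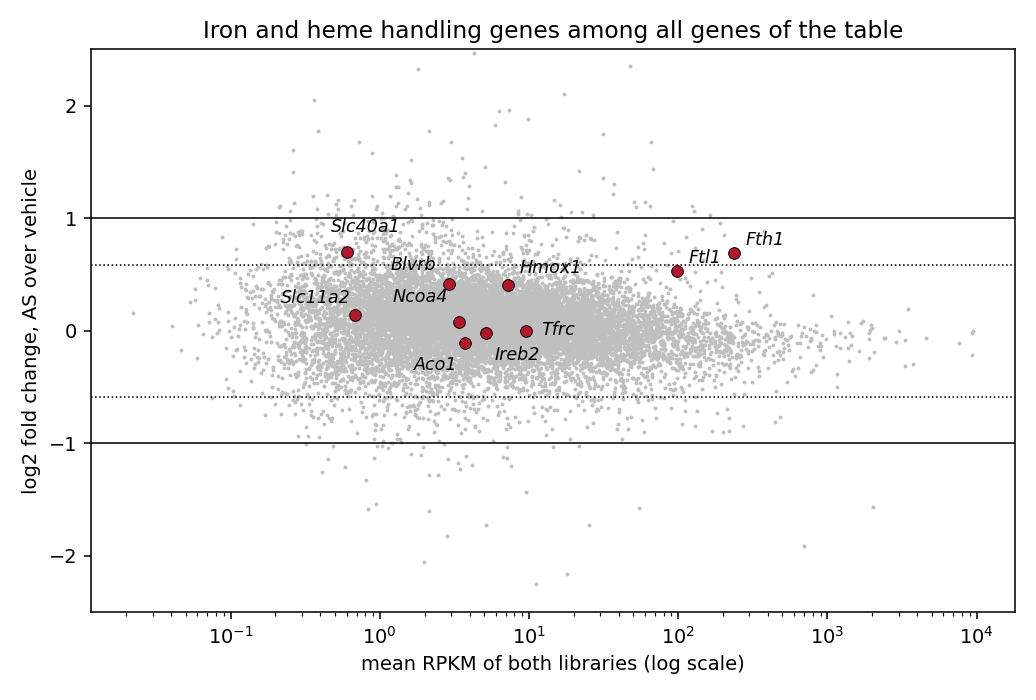
Log2 fold change of AS over vehicle (0.1 RPKM added) against the mean RPKM of both libraries (log axis) for all genes (grey; 5 genes lie outside the drawn range of 2.5) and the 10 iron and heme handling genes (red). Solid lines mark 2-fold and dotted lines 1.5-fold, and Fth1 lies above most genes of its level while Tfrc, Ireb2, Aco1 and Ncoa4 lie inside the central band.

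Ranked by log2 fold change among all 14197 genes, Slc40a1 was number 322, Fth1 334, Ftl1 657, Blvrb 1242 and Hmox1 1284. The other members came well behind, from Slc11a2 at number 5319 to Aco1 at 10799. The 3 genes with the IRE pattern in the 5′ UTR had the 3 largest values of the 10 with 0.1 RPKM added. With 1 RPKM added, however, Slc40a1 (0.30) lay below Hmox1 (0.36) and Blvrb (0.32). The pattern was also held in the 5′ UTR by 22 other measured genes, with a median log2 fold change of 0.01. Of these, 0 were higher and 2 lower at 1.5-fold, beside 3.56% and 2.01% of all genes. Among the 2 lower genes, 1 had a low level, at 0.209 RPKM with AS and 0.384 RPKM with the vehicle. In the 3′ UTR the pattern was held by 91 measured genes other than Tfrc, with a median of 0.07 and 0 past 1.5-fold in either direction.

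RefSeq promoters (GRCm38.p6), from 250 bases before to 50 bases after the start, were present for 7 of the 10 genes, in 12 windows; Hmox1, Slc40a1 and Slc11a2 had no entry. The core of the antioxidant response element bound by NRF2, TGACNNNGC on either strand, was found in 1 of these windows, of Ncoa4, and in 12.4% of all 32851 promoters. The core of the C/EBP-ATF element bound by ATF4, TGATGNAA on either strand, was in 0 of the 12 windows and in 3.97% of all promoters. Sequence outside these windows was not searched, so whether the genes hold either core elsewhere is not known from this search.

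A wider list of 83 iron and heme genes held 66 genes of the table, of which 0 passed a log2 fold change of 1. At 1.5-fold 3 genes (4.55%) were higher, beside 3.56% of all genes, and 0 were lower. With 1 RPKM added 2 genes (3.03%) were higher, beside 1.33% of all genes. With any of the 3 other scalings 2 genes were higher as well, beside 2.68% to 2.75% of all genes. The median of the 66 was 0.07, equal to that of all genes at this precision. The higher ones were Slc48a1, Lcn2 and Abcb6. Slc48a1 encodes HRG1, which moves heme out of the lysosome, and had 10.4 RPKM with AS against 5.44 with the vehicle, which gives a log2 fold change of 0.93 (interval 0.81 to 1.07). This was the largest value among the 76 genes of both lists. Lcn2 encodes lipocalin 2, a secreted protein that binds iron-loaded siderophores, and was at 14.2 RPKM with AS and 8.72 RPKM with the vehicle (log2 fold change 0.70). Abcb6, the gene of a transporter tied to porphyrin traffic, was at 2.31 and 1.45 RPKM, with a log2 fold change of 0.64 that went to 0.57, below 1.5-fold, with TMM scaling.

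By role, the 6 measured genes of iron uptake and reduction other than Tfrc and Slc11a2 had a median log2 fold change of 0.40 and a range from 0.03 to 0.70. Of these 6, 5 lay above the median of all genes, and Steap3, with 92 and 101 reads, lay below it. Steap2, a metalloreductase and the highest of them, was at 16.3 RPKM with AS and 12.2 RPKM with the vehicle (log2 fold change 0.41). The 8 measured genes of heme synthesis had a median of 0.11 and went both ways: Alas1, the first step of the pathway, was at 4.21 RPKM with AS and 3.71 RPKM with the vehicle (0.18), and Urod, a later decarboxylase, at 6.50 and 7.72 RPKM (-0.25). Cpox, the oxidase of the next step, was the highest of them with AS and had the largest value, at 7.16 against 5.04 RPKM (0.50, interval 0.41 to 0.60). For heme transport, binding and breakdown the median of 10 genes was 0.01, with 5 above and 5 below 0, Blvra among the latter. Bach1, the heme-sensing repressor of Hmox1, was at 6.99 RPKM with AS and 5.72 RPKM with the vehicle (0.29).

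Storage partners, iron chaperones and export partners had a median of 0.07 over 5 genes, and Pcbp1, which hands iron to ferritin, was at 38.4 RPKM with AS and 41.3 RPKM with the vehicle (-0.10). Cp, chosen after its values were seen, encodes ceruloplasmin, the ferroxidase that works with ferroportin, and was at 22.7 against 16.9 RPKM (0.42, interval 0.38 to 0.47). Fbxl5, which marks IRP2 for degradation when iron is plentiful, was the highest of the 4 measured genes that control IRPs or hepcidin, at 13.6 and 11.4 RPKM (0.26), and the median of these 4 was 0.003. The 33 genes of mitochondrial iron and iron-sulfur clusters had a median of 0.06, with 19 above and 14 below 0, beside 60.9% of all genes above 0, and the highest of them, Ciao2a, a factor of cytosolic cluster assembly, was at 46.0 and 52.9 RPKM (-0.20). Apart from Slc48a1, Lcn2 and Abcb6, the genes around the 10 members thus stayed within 1.5-fold.

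**Figure D4:**
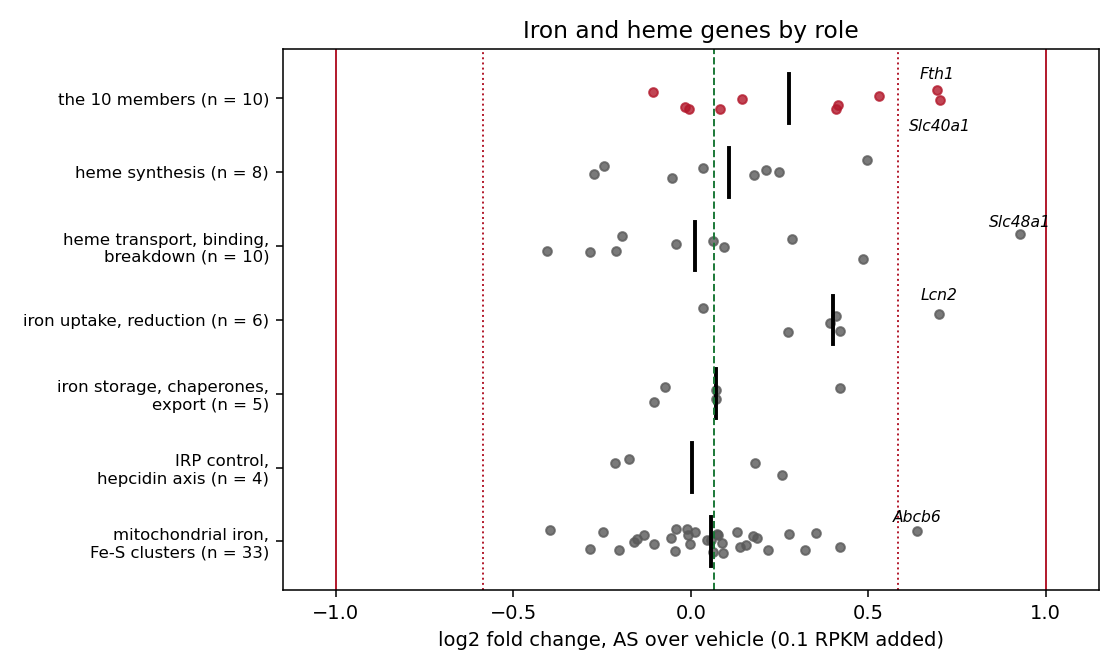
Log2 fold change of AS over vehicle (0.1 RPKM added) of the 10 members (red) and of the 66 genes of the wider list by role (grey), with a bar for each median, the median of all genes (green dashed line) and the limits of 1.5-fold (dotted) and 2-fold (solid). Points are spread vertically for sight only, and Slc48a1 at 0.93 lies nearest to the limit of 1.

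The library sizes behind the RPKM were 44909684 reads with AS and 50820722 with the vehicle. All 8 epithelial markers were measured, at 13.4 to 902 RPKM, and their sum was 1823 RPKM with AS and 2327 RPKM with the vehicle, with Krt19 lower at 1.5-fold (136 and 226 RPKM, log2 fold change -0.73). Of the 8, 6 were lower in sign, and Cldn4 (45.8 and 34.2 RPKM) and Cdh1 (95.5 and 84.6 RPKM) were higher. Of 10 macrophage markers, in a cell type known for high ferritin and ferroportin, 5 were measured, with a sum of 29.6 RPKM with AS and 33.1 RPKM with the vehicle, most of it Cd68 (24.0 and 28.1 RPKM). The other 4 lay above 0 in log2 fold change and 1 of them, Lyz2, above the median of all genes, at 2.47 against 1.85 RPKM (0.40, interval 0.06 to 0.77), while Ptprc was at 0.116 and 0.114 RPKM and Adgre1 was not in the table. Of 10 erythroid markers 0 were in the table, and of 8 fibroblast and endothelial markers 3 were, with sums of 5.72 and 5.33 RPKM. Their part in the values of the iron genes was not tested.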

How the data were processed

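RNA was extracted with TRIzol from 4T1 cells given AS or the vehicle and made into stranded mRNA libraries. The submitters' processing notes name fastp 0.23.4, STAR 2.5.3a and featureCounts, and the build GRCh38, which is human. The authors deposited 1 table with the RPKM of each library, a mean log2 CPM over both, and their own fold change, p-value and FDR, which were not used. The RPKM unit was found from the values: with the summed exon lengths of GENCODE M21 (mouse, GRCm38), a library size was sought in each column that made the reads whole. Within 0.05 reads, whole reads came out in both libraries for 12737 (94.3%) of 13502 genes whose symbol has only 1 entry there, the 10 members included. For these the deposited mean log2 CPM differed from that of the reads by a median of 0.0029. With 1 library per condition no p-value was computed. Reads without molecular identifiers are not independent molecules.

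Fold changes were log2((AS + 0.1)/(vehicle + 0.1)) in RPKM, called beyond 1. Intervals are at 95%: Clopper-Pearson for a difference (no amount added), Poisson for a level, and normal on the log scale for a change of a ratio. Alternatives were 0.01 or 1 RPKM added, scaling by TMM factors, by the median of ratios or by the upper quartile, a mean of at least 1 RPKM and a fold limit of 1.5. Chosen after seeing the data were no added amount and the length of the longest APPRIS principal transcript. The members and lists were chosen with earlier results of these data known. Named are the 10 members, and of the wider lists the genes past 1.5-fold, Hmox2, Blvra, Fbxl5, Bach1, Alas1 and the gene with the highest RPKM of each role; Cpox, Cp and Steap3 were added after their values were seen. Marker genes and Ftl1-ps1 were named to give limits. The steps were tested on simulated data and ran in Python 3.11.15 with numpy 2.4.6, pandas 2.3.3 and scipy 1.17.1.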

Additional observations from a re-analysis of the deposited data

How the results depend on the processing

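With 1 library per condition, counting error is the only error that could be measured, and no library could be left out. No paired analysis was possible because each condition has a single library. All 10 members kept their sign under each of the 6 settings tried for their fold change, and 0 passed a log2 fold change of 1 in any of them. Fth1 moved from 0.69 to 0.62 with TMM, median-of-ratios or upper-quartile scaling, each of which lowers the values by about 0.07 or 0.08, and Slc40a1 moved from 0.70 to 0.30 with 1 RPKM added. The fold limit of 1.5 in place of 2 raised the count of higher members from 0 to 2 and that of the wider list from 0 to 3. A minimum of 1 RPKM removes Slc40a1 and Slc11a2. The amount added moved the counts of all genes, higher and lower: at 1.5-fold from 505 and 286 to 189 and 130 with 1 RPKM and to 659 and 354 with none, and at 2-fold from 94 and 44 to 38 and 16 and to 161 and 66.

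Ratios of levels within a library depend on the length used, while their change between the libraries does not. With reads not divided by length, Fth1 to Ftl1 was 6.52 with AS and 5.83 with the vehicle, Tfrc to Fth1 0.0577 and 0.0936, Hmox1 to Hmox2 0.146 and 0.115, and Ireb2 to Aco1 3.05 and 2.86. Per length of the longest principal transcript these were 4.22 and 3.78, 0.0176 and 0.0286, 0.161 and 0.126, and 2.02 and 1.90, and Blvrb to Blvra was 0.332 and 0.202.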
